A study of Mus musculus with 8 samples.

Results

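Cathepsins, lysosome-associated membrane proteins (LAMPs) and the vacuolar proton pump were examined in tumor-associated macrophages (TAMs) from EO771 tumors, a mouse mammary cancer line. The genes were taken by name: every protein-coding gene whose symbol starts with Atp6v or Atp6ap, is Lamp followed by a digit, or is Cts followed by 1 letter. This gave 41 of the 26939 genes in the joined count tables. They comprised 8 membrane (V0) and 13 cytosolic (V1) pump subunits, 3 accessory pump proteins, 3 LAMPs, 10 cysteine cathepsins, 2 aspartic cathepsins and 2 serine cathepsins.

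TAMs had been sorted at day 21 after tumor inoculation with a gate for viable Gr-1- cells positive for CD45, CD11b and F4/80, and poly-A RNA was sequenced in 2 libraries for each of 4 groups. Mice were WT or homozygous for the 3d allele of Unc93b1 (Unc93b1 3d/3d), and each genotype had a control and an αMARCO group. The mice were 8 to 14 weeks old, and αMARCO, a rat IgG1 antibody (clone ED31) against the scavenger receptor MARCO, was given at 100 μg on days 3, 6, 9 and 12. The control libraries are labelled untreated and carry PBS in their library names, whereas the treatment protocol names an IgG1 isotype control, so the control injection is not settled, and 1 library titled Unc93b1 3d/3d control carries the genotype entry 3d/4d. Each control sample is described as pooled from 3 mice. The 3d allele is a point mutation carried in every cell of the animal, and the transcript level of Unc93b1 does not check it.

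As background, the proton pump couples ATP hydrolysis by V1 to proton transport through V0 and acidifies endosomes and lysosomes. Cathepsins are the proteases that work in that acid lumen, and LAMPs are the main glycoproteins of the lysosomal membrane. UNC93B1 carries the nucleic acid sensing Toll-like receptors TLR3, TLR7 and TLR9 to endolysosomes, where cathepsins trim the receptor ectodomains, so the genes described here encode the compartment in which those receptors act. In antigen presenting cells, cathepsin S and cathepsin L are also known for cutting the invariant chain of MHC class II.

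Transcription factors of the MiT/TFE family, such as TFEB, are known to bind an E-box in promoters of lysosomal genes, and the sequences below show which of these promoters hold its letters. The RefSeq promoter table (GRCm38.p6) gave a window of 250 bases before to 50 after the start for 30 of the 41 genes. The palindrome TCACGTGA, on either strand, stood in 5 of the 30 genes (16.7%), namely Atp6v0d1, Atp6v0e, Atp6v1a, Ctsa and Ctsd, against 1.12% of all 27025 genes with a window. Among genes tested in control TAMs the shares were 5 of 23 (21.7%) and 2.15%. Its core CACGTG, which every TCACGTGA also contains, stood in 9 of 30 (30%) against 8.09% of all genes, and GTCACGTG, which overlaps the same core, in 5 of 30 (16.7%) against 2.55%. The stretches are printed in the direction of transcription and end before the RefSeq start, with TCACGTGA in capitals for Atp6v1a and Ctsd and CACGTG in capitals for Lamp1, Atp6v0b and Ctsl. Ctsk and Ctss are shown because both are among the genes that changed and neither window held the core.
Atp6v1a (chr16:44139354-44139421, minus strand): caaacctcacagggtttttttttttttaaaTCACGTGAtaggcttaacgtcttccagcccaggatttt
Ctsd (chr7:142387908-142387937, minus strand): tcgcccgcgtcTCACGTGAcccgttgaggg
Lamp1 (chr8:13159070-13159160, plus strand): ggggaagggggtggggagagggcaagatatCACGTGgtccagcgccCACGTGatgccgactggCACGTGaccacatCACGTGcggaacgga
Atp6v0b (chr4:117887334-117887395, minus strand): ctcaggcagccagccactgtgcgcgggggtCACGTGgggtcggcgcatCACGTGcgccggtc
Ctsl (chr13:64370739-64370768, minus strand): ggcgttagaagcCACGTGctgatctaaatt
Ctsk (chr3:95499140-95499209, plus strand): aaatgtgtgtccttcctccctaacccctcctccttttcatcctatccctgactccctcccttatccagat
Ctss (chr3:95526716-95526785, plus strand): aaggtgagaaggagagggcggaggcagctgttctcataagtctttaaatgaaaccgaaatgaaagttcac

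Lamp1 carried 4 copies of the core in these 91 bases and Atp6v0b carried 2. The copy in Atp6v1a began 132 bases before the start, that in Ctsd 99 bases before it and that in Ctsl 236 bases before it. In the GENCODE M21 annotation the Ctsd stretch lies in a longer first exon, and 15 bases of the Ctsl stretch do so as well. A match of letters is a description and no measure of binding.

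The library totals ranged from 15182618 to 26411936 counts, so that 3 counts, the smallest amount taken as detected, equal 0.114 to 0.198 CPM, a unit that scales the counts of a gene to the total of its library, and this limit covers counting error only. All 14 macrophage markers examined were present, with a summed level of 13820 to 21528 CPM. The 2 Unc93b1 3d/3d αMARCO libraries stood apart from each other. The SD of the log2 difference between the libraries of a group, over 16620 genes, was 1.01 in that group and 0.435 to 0.579 in the other groups. Of the 33 tested genes described here, 27 were higher in replicate 2 of that group, with a median log2 difference of 0.47 and a range from −1.77 for Ctse to 2.27 for Atp6v1c1, as the plot of replicate differences shows. The counts of genes called by edgeR in comparisons with this group are therefore given with and without each of its libraries. The labels do not say that the libraries of a group came from separate sorts, and the P values measure only the spread between them.

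**Figure D1:**
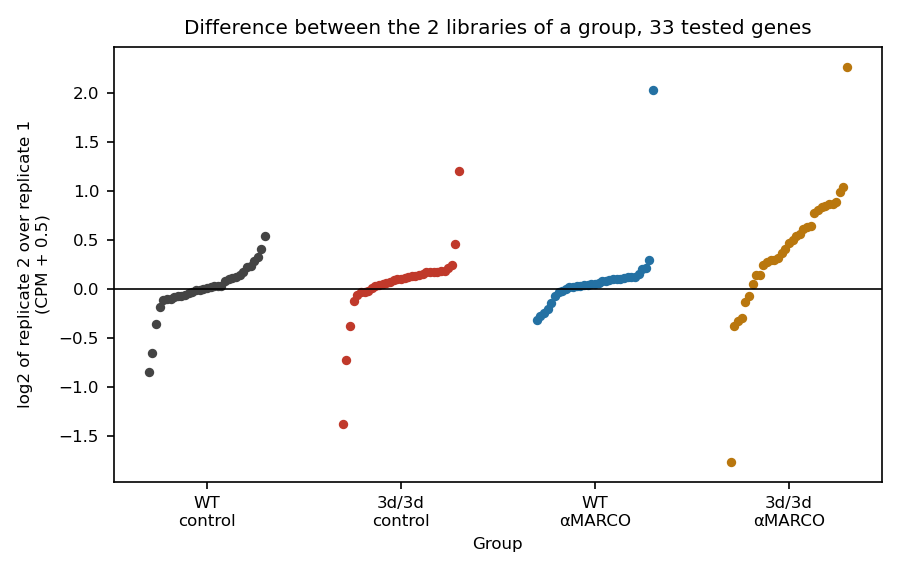
Difference between replicate 2 and replicate 1 of each group, as the log2 ratio of CPM + 0.5, for the 33 tested genes (1 point per gene, sorted within each group). The points of the 3d/3d αMARCO group reach from −1.77 to 2.27 with a median of 0.47, while the medians of the other groups lie between 0.01 and 0.10.

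Levels between genes were compared as CPM per kilobase of the gene length in the files, averaged over all 8 libraries. Ctss was highest at 1716, followed by Ctsb at 669, Ctsz at 635, Ctsc at 309, Lamp1 at 240 and Ctsd at 226. Of the 2351 exon bases of Ctsd, 808 are shared with a protein-coding gene model on the same strand. How the counting treated reads there is not given in the sources used here, so the level of Ctsd may be affected. Ctsb is an endopeptidase and carboxypeptidase, Ctsz a carboxypeptidase, and Ctsc the dipeptidyl peptidase that activates granule serine proteases. Within the other groups, Atp6v0b was the highest V0 subunit at 120, Atp6v1g1 the highest V1 subunit at 111, Atp6ap1 the highest accessory protein at 101 and Ctsa the higher serine cathepsin at 186. The order of the 41 genes was identical when the deposited FPKM values replaced CPM per kilobase. Both rest on the same counts and gene lengths, so this is no separate check.

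Together the 41 genes took between 1.32% and 1.88% of all counts of a library. The share was 1.61% ± 0.08 in WT control TAMs, 1.80% ± 0.10 in those of 3d/3d controls, 1.36% ± 0.02 after αMARCO in WT and 1.47% ± 0.21 after αMARCO in 3d/3d (SD, n = 2 each). Cathepsins made up most of it, with 1.23% ± 0.08 and 1.39% ± 0.08 in WT and 3d/3d control TAMs and 1.02% ± 0.02 and 1.1% ± 0.17 after αMARCO (SD, n = 2 each). The proton pump was steadier, with group means between 0.254% and 0.297% of all counts. An exact permutation test of 2 libraries against 2 cannot give a two-sided P below 0.333, so these shares are descriptions.

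**Figure D2:**
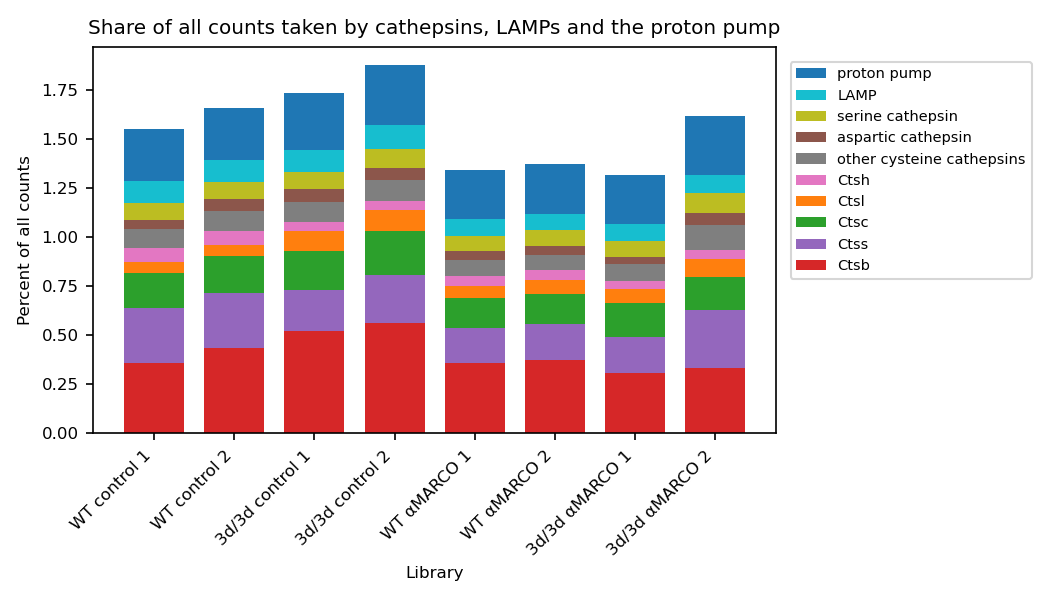
Percent of all counts of each library taken by Ctsb, Ctss, Ctsc, Ctsl, Ctsh, the other cysteine cathepsins, the aspartic and serine cathepsins, the LAMPs and the proton pump, stacked. The stacks of the WT control libraries reach 1.55% and 1.66% and those of the 3d/3d control libraries 1.73% and 1.88%, while the αMARCO stacks reach 1.34% and 1.38% for WT and 1.32% and 1.62% for 3d/3d.

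Several pump subunits have paralogs, and the TAM libraries held mainly 1 form of each. Atp6v1b2 made up at least 99.9% of the B subunit level per kilobase, Atp6v1e1 at least 99.7% of the E subunit and Atp6v0e at least 99.7% of the e subunit in every library. Among the a subunits, which anchor V0 and steer the pump to its compartment, Tcirg1, the a3 form known from osteoclasts and macrophages, took 77.1% to 83.9%, Atp6v0a1 took 11.4% to 17.2% and Atp6v0a2 took 3.99% to 6.31%. Tcirg1 lies outside the name rule and was not called in any comparison.

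The remaining 8 genes were too low to be tested. Their counts over all 8 libraries summed to 17 for Atp6v0e2, 15 for Lamp3, 12 for Atp6v1b1, 7 for Ctsg, 6 for Atp6v1c2, 5 for Atp6v1g3, 3 for Atp6ap1l and 2 for Atp6v1e2. LAMP3 is known as a marker of mature dendritic cells in human, and Lamp3 had at most 6 counts in a library although the summed level of 11 mature dendritic cell markers was 499 to 1761 CPM. Cathepsin G is a neutrophil granule protease, and Ctsg had at most 3 counts in a library. No fold is given for these genes, since both groups of each comparison were near the floor.

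**Figure D3:**
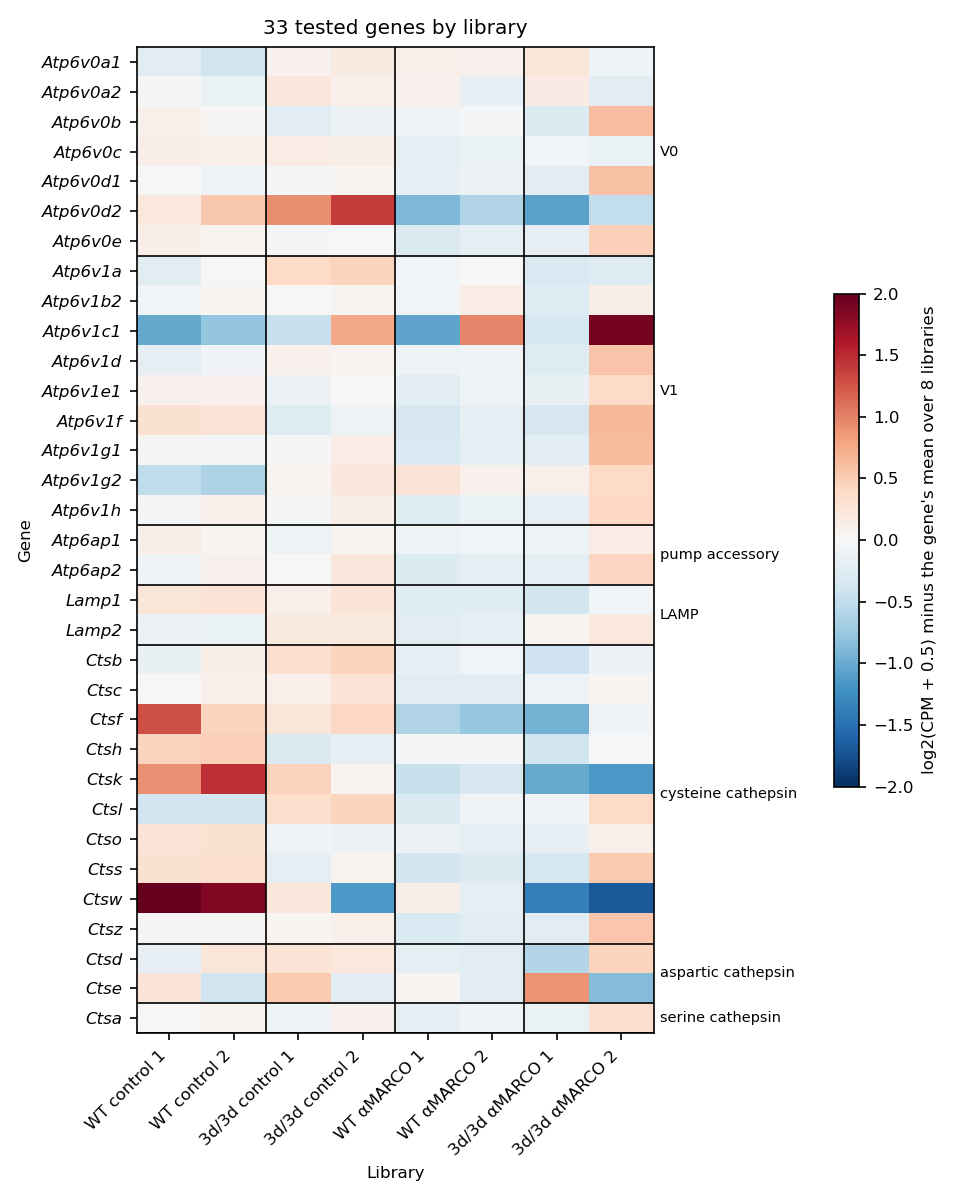
Level of each of the 33 tested genes (rows, by role) in each library (columns), as log2(CPM + 0.5) minus the mean of that gene over the 8 libraries. The color scale stops at −2 and 2. Ctsw, Ctsk and Atp6v0d2 show the widest group differences, Atp6v1c1 differs between libraries of the same group, and many genes are raised in replicate 2 of 3d/3d αMARCO against replicate 1.

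The comparison of WT with Unc93b1 3d/3d control TAMs asks whether TAMs without working endosomal TLRs carry another set of lysosomal genes. A gene counted as called when edgeR's quasi-likelihood test gave an adjusted P no higher than 0.05 over all genes and the log2 fold change was 0.5 or more in size. Of the 33 tested genes 7 were called, or 21.2%, against 13.0% of all 15600 genes tested. Ctsw, Ctsk and Ctsh were higher in WT (3 genes, against 6.58% of all genes called higher), and Ctsl, Atp6v0d2, Atp6v1a and Atp6v1g2 were higher in 3d/3d (4 genes, against 6.40% of all genes called lower in WT). The 7 genes were thus 4 of the 13 tested cathepsins, which moved in both directions, and 3 of the 18 tested pump genes, which were all higher in 3d/3d. The median log2 fold change of WT over 3d/3d was −0.06 over the 33 genes and −0.0036 over all genes. The CPM of the groups did not overlap for 22 of the 33 genes (66.7%), close to the 63.1% of all genes for which this held.

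**Figure D4:**
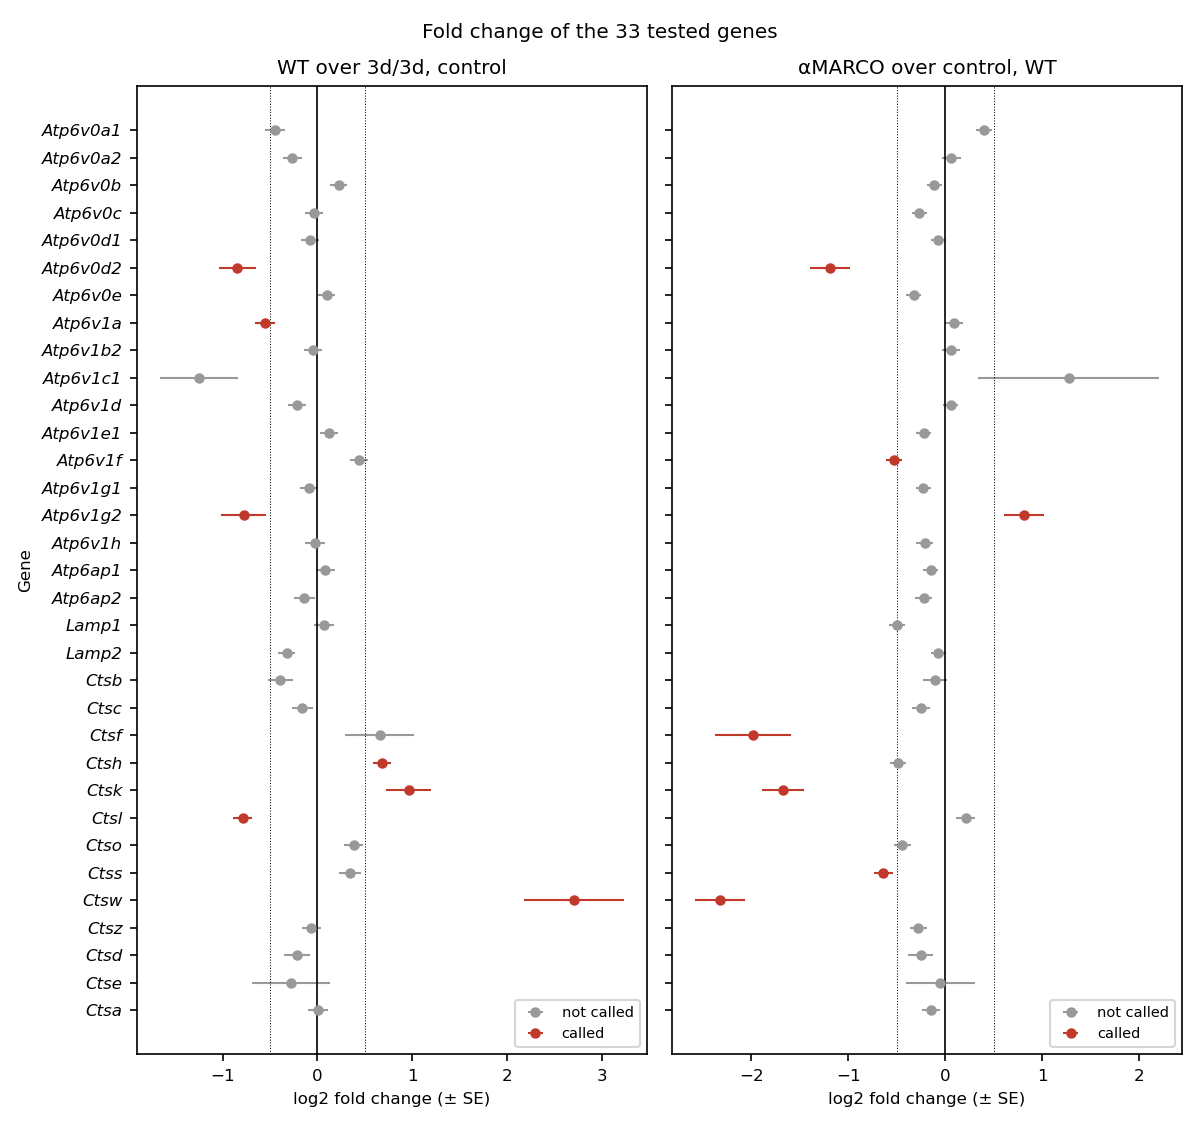
Log2 fold change (points) with its SE (bars) of the 33 tested genes for WT over 3d/3d in control TAMs (left) and αMARCO over control in WT TAMs (right), with called genes in red and dotted lines at ±0.5. On the left Ctsw stands at 2.70 and Ctsl at −0.79, and on the right Ctsw stands at −2.32 and Atp6v1g2 at 0.81.

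Cathepsin L, an endopeptidase that can process TLR9 and the invariant chain, had the smallest adjusted P among these genes. Ctsl (chr13:64359337-64370890) was at 581 and 589 CPM in WT control and at 967 and 1035 CPM in 3d/3d control. The groups were far apart relative to the libraries within them, with a log2 fold change of −0.79 ± 0.10 (SE) and an adjusted P of 0.00116. Cathepsin S, its counterpart in invariant chain processing, was at 2802 and 2826 CPM in WT control and at 2013 and 2384 CPM in 3d/3d control, and did not pass the test (log2 fold change 0.34 ± 0.12 (SE), adjusted P = 0.0703). On the scale of CPM per kilobase, Ctsl was 4.16% and 4.18% of the sum of both in WT control and 9.13% and 8.33% in 3d/3d control. Of the exon bases of Ctsl, 1742 are shared with an antisense gene model and 395 with a pseudogene on the same strand, and whether counting used strand is not given in the sources used here.

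Cathepsin H, an aminopeptidase, moved the other way. Ctsh (chr9:90054152-90076089) was at 700 and 715 CPM in WT control and at 418 and 454 CPM in 3d/3d control, a log2 fold change of 0.68 ± 0.10 (SE) with an adjusted P of 0.00229. These abundant enzymes thus differed by 1.6-fold for Ctsh and 1.73-fold for Ctsl in opposite directions. Ctsb, the largest single contributor of counts, was at 3590 and 4379 CPM in WT control and at 4950 and 5396 CPM in 3d/3d control. Its groups did not overlap, but it did not pass the test (log2 fold change −0.39 ± 0.13 (SE), adjusted P = 0.0627), and it was called only without replicate 2 of WT control.

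Cathepsin K, a collagen-degrading protease best known from osteoclasts, was low in these cells. Ctsk (chr3:95499256-95509362) was at 13.2 and 19.5 CPM in WT control and at 9.48 and 7.15 CPM in 3d/3d control, with a log2 fold change of 0.96 ± 0.24 (SE) and an adjusted P of 0.0226. The call was lost without replicate 2 of WT control (0.67, adjusted P = 0.082), without replicate 2 of 3d/3d control (0.76, adjusted P = 0.0962), and at 0.84 with an adjusted P of 0.0504 when gene length offsets were used. Ctss lies 17.4 kb from Ctsk on the same strand of chromosome 3.

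Of 6 tested osteoclast markers, Acp5 and Mmp9 were called higher in WT, with Calcr not listed and Oscar at most 0.152 CPM in these 4 libraries. The summed CPM of the listed markers was 536 to 574 in WT control and 235 to 281 in 3d/3d control, and that difference was carried by Acp5: without it the sums overlapped, at 152 to 182 CPM in WT control and 162 to 195 CPM in 3d/3d control. The summed CPM of 10 fibroblast markers was 120 to 141 in WT control and 164 to 200 in 3d/3d control, with 1 called higher and 3 called lower in WT. The part of such cells in the level of Ctsk was not tested. In bulk samples, fewer cells of a type and less RNA per cell cannot be told apart.

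Cathepsin W is a protease of cytotoxic lymphocytes. Ctsw (chr19:5465240-5468498) was at 10.8 and 8.37 CPM in WT control and at 2.39 and 0.609 CPM in 3d/3d control, with a log2 fold change of 2.70 ± 0.53 (SE) and an adjusted P of 0.0153. It was called in each fit that left out 1 library of the comparison. The summed level of 16 T cell markers moved with it, at 176 to 199 CPM in WT control and 19.5 to 40.7 CPM in 3d/3d control, and all 16 were called higher in WT with a median log2 fold change of 2.75. The summed level of 12 NK and cytotoxic markers was 208 to 226 CPM in WT control and 47.9 to 83.5 CPM in 3d/3d control, with 5 called higher. None of these markers was at 0 in both libraries of a group. The part of lymphocyte RNA in the level of Ctsw was not tested.

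Ctsf and Ctsw lie on chromosome 19, 905.8 kb and 1515.7 kb from Unc93b1, the locus at which the groups were selected. Whether that linkage bears on their levels was not tested. Ctsf, a cysteine cathepsin with a role in invariant chain processing in macrophages, was at 5.68 and 2.94 CPM in WT control and 2.51 and 2.89 CPM in 3d/3d control and did not pass the test (log2 fold change 0.66 ± 0.37 (SE), adjusted P = 0.244).

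Among the pump genes, Atp6v0d2 encodes the scarcer of the d subunits, which link V0 to the central stalk. Atp6v0d2 (chr4:19876841-19922605), an isoform known from osteoclasts and macrophages, was at 10.6 and 13.5 CPM in WT control and at 18 and 24.9 CPM in 3d/3d control. The log2 fold change was −0.85 ± 0.20 (SE) with an adjusted P of 0.0177, and without replicate 2 of 3d/3d control it was −0.60 with an adjusted P of 0.0936. Its ubiquitous paralog Atp6v0d1 was at 155 and 144 CPM against 153 and 159 CPM (log2 fold change −0.08 ± 0.09 (SE), adjusted P = 0.587). On the scale of CPM per kilobase, Atp6v0d2 was 4.33% and 5.83% of both d subunits in WT control and 7.18% and 9.35% in 3d/3d control.

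Atp6v1a encodes the catalytic A subunit, which hydrolyzes ATP. Atp6v1a (chr16:44085402-44139705) was at 195 and 227 CPM in WT control and at 300.4 and 310.2 CPM in 3d/3d control, with a log2 fold change of −0.55 ± 0.10 (SE) and an adjusted P of 0.00794. The value was close to the fold threshold, and it was −0.43 without replicate 1 of WT control and −0.48 with gene length offsets. The B subunit, which forms the ATPase ring with A, did not pass the test, with Atp6v1b2 at 336 and 363 CPM in WT control and 349 and 365 CPM in 3d/3d control (log2 fold change −0.05 ± 0.09 (SE), adjusted P = 0.773).

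The G subunit isoform Atp6v1g2, known from neurons, was at 4.79 and 4.43 CPM in WT control and at 7.28 and 8.37 CPM in 3d/3d control. Its log2 fold change was −0.78 ± 0.24 (SE) with an adjusted P of 0.0482, and leaving out any 1 of the 4 libraries ended the call, at log2 fold changes of −0.68 to −0.87 and adjusted P of 0.0933 to 0.181. It made up 1.64% to 2.69% of the G subunit level per kilobase in these libraries, next to Atp6v1g1 at 97.3% to 98.3%. Of its exon bases, 144 are shared with Nfkbil1 on the opposite strand.

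Atp6v1c1, the C subunit that joins V1 to V0, had a larger fold change that did not pass. It was at 6.32 and 7.54 CPM in WT control and at 9.60 and 22.8 CPM in 3d/3d control, and its libraries also disagreed in both αMARCO groups, at 6.16 and 26.8 CPM in WT and at 10.3 and 51.6 CPM in 3d/3d. Its log2 fold change was −1.25 ± 0.41 (SE) with an adjusted P of 0.0925. It was called by DESeq2, and by edgeR with no filter beyond 1 count, with a replicate block, with that block and gene length offsets, and without replicate 1 of 3d/3d control. No other gene model overlaps its exons in GENCODE M21.

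A further 4 genes passed the adjusted P but not the fold threshold in control TAMs. The share of all genes that did so is not given here, so this number is no result about these genes. Atp6v1f, a subunit of the central rotor, was higher in WT by 0.44 ± 0.09 (SE, log2) and Ctso by 0.38 ± 0.10, whereas Atp6v0a1 was higher in 3d/3d (−0.45 ± 0.10) and Lamp2, which takes part in chaperone-mediated autophagy, likewise (−0.32 ± 0.09). The most abundant LAMP, Lamp1, was at 752 and 770 CPM in WT control and 680 and 756 CPM in 3d/3d control, with a log2 fold change of 0.07 ± 0.10 (SE). The aspartic protease Ctsd was at 460 and 613 CPM in WT control and 629 and 601 CPM in 3d/3d control, and the groups overlapped.

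The calls depended on the libraries entered in the fit. With all 8 libraries in 1 model, which takes the spread of the 3d/3d αMARCO libraries into the estimate, 0 of the 33 genes were called, against 2.19% of all genes, and the 7 genes kept the sign of their fold changes. With the 6 libraries outside that group in 1 model, the same 7 genes were called, against 14.7% of all genes.

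Setting αMARCO against control in WT TAMs asks which of these genes moved with the antibody in mice with working endosomal TLRs. Of the 33 tested genes 7 were called, or 21.2%, near the 20.7% of all 15630 genes tested, so the share itself is no result about these genes. Ctsw, Ctsf, Ctsk, Ctss, Atp6v0d2 and Atp6v1f fell (6 genes, against 11.8% of all genes called lower) and Atp6v1g2 rose (1 gene, against 8.91% called higher). All 4 called cathepsins were cysteine cathepsins, of which 10 were tested. A further 3 of the 10 fell by the adjusted P without reaching the fold threshold. The share of all genes that did so is not given here, so this number is no result about cysteine cathepsins. The median log2 fold change was −0.22 over the 33 genes and −0.01 over all genes. The groups did not overlap for 26 of the 33 genes (78.8%), against 70.9% of all genes. The WT control libraries of this comparison are also those of the genotype comparison, so the changes of Ctsw, Ctsk, Atp6v0d2 and Atp6v1g2 in both are not independent.

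Cathepsin S, the most abundant of these genes, was at 2802 and 2826 CPM in WT control and at 1733 and 1859 CPM in WT αMARCO. The log2 fold change was −0.64 ± 0.10 (SE) with an adjusted P of 0.00139, a 1.56-fold lower level, and −0.47 with gene length offsets, under the fold threshold. Ctsl was at 581 and 589 CPM in WT control and at 623 and 724 CPM in WT αMARCO, and did not pass the test (log2 fold change 0.21 ± 0.10 (SE), adjusted P = 0.117). On the scale of CPM per kilobase, Ctsl was 7.0% and 7.53% of the sum of both in WT αMARCO.

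Ctsk was at 4.85 and 5.32 CPM in WT αMARCO, below the 13.2 and 19.5 CPM of WT control, with a log2 fold change of −1.67 ± 0.22 (SE) and an adjusted P of 5.97e-04. It was the 1 gene still called (−1.68) with all 8 libraries in 1 model, against 0.987% of all genes. Ctsf was at 1.16 and 1.0 CPM in WT αMARCO, below the 5.68 and 2.94 CPM of WT control, with a log2 fold change of −1.99 ± 0.39 (SE) and an adjusted P of 0.00414. Ctsw was at 2.18 and 1.66 CPM in WT αMARCO, below 10.8 and 8.37 CPM, with a log2 fold change of −2.32 ± 0.26 (SE) and an adjusted P of 2.78e-04.

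Marker levels of several other cell types moved with these genes as well, in a comparison with 11.8% of all genes called lower and 8.91% higher. In WT αMARCO the summed level of the 16 T cell markers was 19.5 to 27.8 CPM, and all 16 were called lower than in WT control with a median log2 fold change of −2.89. The NK and cytotoxic markers summed to 55.5 to 67.5 CPM, with 8 of 12 called lower. The fibroblast markers summed to 34.3 to 46.6 CPM, with 5 of 10 called lower and 1 higher. Of the osteoclast markers Acp5 and Mmp9 were called lower, and the sum of the others without Acp5 was 162 to 167 CPM, within the range of WT control. Markers of other antigen presenting cells also differed. The 11 mature dendritic cell markers summed to 566 to 660 CPM in WT αMARCO and 1144 to 1761 CPM in WT control, with 7 of 10 tested called lower (median log2 fold change −2.68), and between control groups 6 of 10 were called higher in WT (median 1.88). Of 10 cDC1 markers 5 were called lower with αMARCO and 3 higher in WT control, and of 12 nonclassical monocyte markers 6 were called lower and 1 higher with αMARCO, and 5 higher and 1 lower in WT control. The summed level of 12 neutrophil markers went the other way, at 358 to 362 CPM in WT αMARCO and 299 to 308 CPM in WT control. Of 6 tested neutrophil markers, 3 were called lower and 0 higher. Called lower were 1 of 7 tested B cell markers, 2 of 7 plasmacytoid dendritic cell markers and 2 of 3 epithelial or tumor cell markers, with 0 higher. The part of all these cells in the levels of Ctsw, Ctsk, Ctss, Ctsh and the other cathepsins was not tested. Of the 14 macrophage markers, 1 was called higher and 4 lower with αMARCO. Their summed level was 13820 to 14930 CPM in WT αMARCO and 16574 to 17340 CPM in WT control. Between control groups 2 were called higher and 3 lower in WT, with sums of 14641 to 17294 CPM in 3d/3d control.

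Atp6v0d2 was at 4.66 and 5.82 CPM in WT αMARCO, below the 10.6 and 13.5 CPM of WT control, with a log2 fold change of −1.19 ± 0.21 (SE) and an adjusted P of 0.00233. It was 2.17% and 2.61% of both d subunits per kilobase, with Atp6v0d1 at 139 and 143 CPM (log2 fold change −0.07 ± 0.08 (SE)). Atp6v1f was at 77.8 and 86.6 CPM in WT αMARCO and at 121 and 118 CPM in WT control, with a log2 fold change of −0.53 ± 0.08 (SE) and an adjusted P of 0.00124. This value fell under the fold threshold without replicate 1 of WT αMARCO (−0.45) and with gene length offsets (−0.36). Atp6v1g2 was at 8.69 and 7.48 CPM in WT αMARCO, above the 4.79 and 4.43 CPM of WT control, with a log2 fold change of 0.81 ± 0.21 (SE) and an adjusted P of 0.0134. The call was lost without replicate 1 (0.71, adjusted P = 0.135) or replicate 2 (0.92, adjusted P = 0.0508) of WT αMARCO. Atp6v1c1 was called higher only without replicate 1 of WT αMARCO.

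The share of all genes passing the adjusted P but not the fold threshold, in either direction, is not given here. The next number is therefore no result about these genes. Another 9 genes passed the adjusted P but not the fold threshold in this comparison, and all but Atp6v0a1 (0.40 ± 0.09 (SE)) were lower with αMARCO. Among these, Lamp1 was at 752 and 770 CPM in WT control and at 537 and 535 CPM in WT αMARCO (−0.50 ± 0.08), just inside the threshold, and Ctsh was at 497 and 506 CPM in WT αMARCO (−0.49 ± 0.08). Ctso (−0.44 ± 0.09), Atp6v0e (−0.33 ± 0.08), Ctsz (−0.28 ± 0.09), Atp6v0c, the proteolipid of the V0 ring (−0.27 ± 0.08), Atp6v1g1 (−0.23 ± 0.08) and Atp6v1e1 (−0.22 ± 0.08) completed the group. Ctsb, Ctsc, Ctsd and Ctsa did not pass, with log2 fold changes of −0.10, −0.25, −0.25 and −0.15. Lamp1 was called lower with no filter beyond 1 count and in the model of 6 libraries. With gene length offsets Ctsh and Ctso were called lower, while Ctss and Atp6v1f were no longer called.

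**Figure D5:**
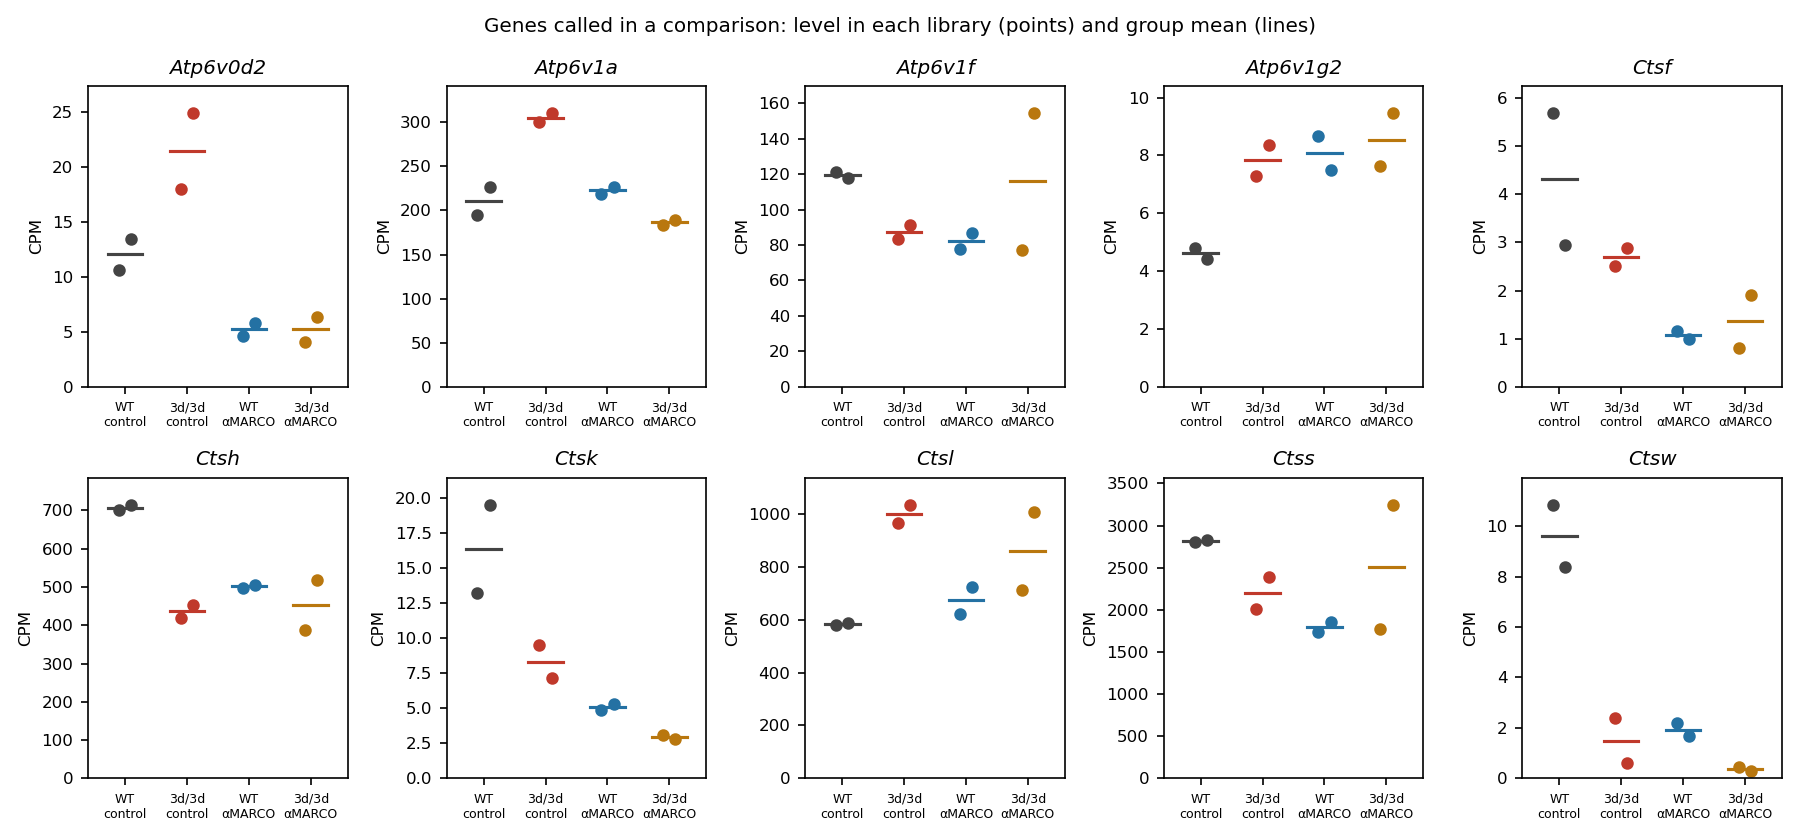
CPM of the 10 genes called in a comparison, with 1 point per library, a line at the mean of the 2 libraries of each group, and axes that start at 0. Ctsl and Atp6v1a have their highest mean in 3d/3d control, Ctsh, Ctsk and Ctsw have theirs in WT control, Atp6v0d2 is between 4.11 and 6.32 CPM in all αMARCO libraries, and Ctss, Ctsl and Atp6v1f differ between the 2 libraries of 3d/3d αMARCO.

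The comparison of αMARCO with control in Unc93b1 3d/3d TAMs asks about the antibody without working endosomal TLRs. edgeR's quasi-likelihood test called 0 of the 33 genes, against 0% of all 15428 genes, with 3 of the 33 and 744 of all genes at an unadjusted P of at most 0.05. The 3 were Atp6v0d2, Ctsk and Atp6v1a. Atp6v0d2 was at 18 and 24.9 CPM in 3d/3d control and at 4.11 and 6.32 CPM in 3d/3d αMARCO, a log2 fold change of −2.04 ± 0.35 (SE) with an adjusted P of 0.823 in edgeR. DESeq2 called 1 of the 38 genes with a count in these libraries, and this was Atp6v0d2 (−2.05, adjusted P = 9.94e-04). Of all genes to which DESeq2 gave an adjusted P, it called 0.378%. How many of the 38 were given an adjusted P was not counted. Ctsk was at 9.48 and 7.15 CPM in 3d/3d control and at 3.11 and 2.79 CPM in 3d/3d αMARCO (−1.48 ± 0.36 (SE)), and Atp6v1a was at 300.4 and 310.2 CPM and at 183 and 190 CPM (−0.70 ± 0.22 (SE)).

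The libraries of 3d/3d αMARCO decided the count. Without replicate 1, 11 genes were called against 34.1% of all genes, and without replicate 2, 6 were called against 3.41% of all genes, with the lone library assumed to vary like the control libraries. Called lower either way were Atp6v0d2 (−1.75 and −2.38), Atp6v1a (−0.67 and −0.73) and Ctsk (−1.56 and −1.41). The other genes depended on which library was kept. The shares of all genes called higher and lower in these fits are not given here, so the directions of these other calls are no result about these genes. With replicate 2 kept, 8 genes were called higher, among them Atp6v1f (0.83), Atp6v0b (0.81) and Ctss (0.58), and with replicate 1 kept, Ctsd (−0.84), Ctsb (−0.78) and Lamp1 (−0.55) were called lower. The groups did not overlap for 9 of the 33 genes (27.3%), against 38.9% of all genes.

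The comparison of WT with Unc93b1 3d/3d under αMARCO called 0 of the 33 genes, against 0% of all 15722 genes, with 1 of the 33 and 1076 of all genes at an unadjusted P of at most 0.05 in edgeR. DESeq2 called 0 of the 41 genes, and 1.13% of all genes to which it gave an adjusted P. How many of the 41 were given an adjusted P was not counted. The 1 gene at that unadjusted P was Ctsw, at 2.18 and 1.66 CPM in WT and 0.451 and 0.272 CPM in 3d/3d (log2 fold change 2.36 ± 0.57 (SE), adjusted P = 0.518). Without replicate 1 of 3d/3d αMARCO, 15 genes were called against 38.6% of all genes, and 13 of these were lower in WT. Without replicate 2, 2 genes were called against 7.45% of all genes, namely Ctsw (2.07) and Ctse (−1.12), an aspartic protease at 1.22 to 5.37 CPM. Ctsw was called either way. The shares of all genes called higher and lower in these fits are not given here, so the directions of the calls are no result about these genes. The groups did not overlap for 7 of the 33 genes (21.2%), against 44.3% of all genes.

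Whether the αMARCO effect differed between genotypes was tested as an interaction over all 8 libraries. It called 0 of the 33 genes, against 0% of all 16620 genes, with 3 of the 33 and 2549 of all genes at an unadjusted P of at most 0.05 in edgeR. DESeq2 called 0 of the 41 genes, and 1.44% of all genes to which it gave an adjusted P. Here too, how many of the 41 were given an adjusted P was not counted. In edgeR, the 3 at an unadjusted P of at most 0.05 were Atp6v1a, Ctso (−0.53 ± 0.21) and Atp6v1f (−0.94 ± 0.39). For Atp6v1a the log2 difference of effects was 0.79 ± 0.20 (SE), with an adjusted P of 0.318. Without replicate 1 of 3d/3d αMARCO 14 genes were called against 36.4% of all genes, and without replicate 2, 2 genes were called against 3.45% of all genes. Atp6v1a was called either way (0.77 and 0.80), and its αMARCO libraries lay below the control libraries in 3d/3d but overlapped them in WT. For Atp6v0d2 the difference was 0.85 ± 0.41 (SE, adjusted P = 0.338), for Ctsk −0.20 ± 0.39, for Ctsw −0.36 ± 0.91 and for Ctsl 0.42 ± 0.28, and none of these passed.

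Lysosomal genes outside the name rule were counted from lists of the same pathway. For scale, 6.58% of all genes were called higher in WT control and 6.40% lower. No list was tested against these shares. In control TAMs, 2 of 38 tested lysosomal hydrolases were called higher in WT and none lower. Acp5, the tartrate-resistant acid phosphatase, was at 354 and 422 CPM in WT control and 72.4 and 86.6 CPM in 3d/3d control, with a log2 fold change of 2.27 ± 0.13 (SE) and an adjusted P of 1.03e-05. Acp5 is also on the osteoclast marker list. Of 16 pump genes outside the rule, such as assembly factors and chloride exchangers, none was called higher and 2 lower in WT, with Dmxl1, a pump regulator, changing most (−0.79 ± 0.15 (SE), adjusted P = 0.00981).

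Of 23 lysosomal membrane and transport genes, 1 was called higher and 3 lower in WT control. The phagosomal metal transporter Slc11a1 was higher (1.34 ± 0.17 (SE), adjusted P = 0.00315) and the channel gene Mcoln2 lower (−1.16 ± 0.19 (SE), adjusted P = 0.00434). Of 9 genes of the mannose 6-phosphate and sorting route, which delivers cathepsins to lysosomes, Sort1 was called higher (2.30 ± 0.18 (SE), adjusted P = 1.03e-04) and Gnptab lower (−0.56 ± 0.10 (SE), adjusted P = 0.00578).

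Of 8 tested genes on the cathepsin inhibitor list, 3 were called higher in WT control and none lower. They were led by Serpinb9, an inhibitor of granzyme B (2.09 ± 0.19 (SE), adjusted P = 8.38e-04), so the count does not describe cathepsin inhibitors alone. Of 16 MiT/TFE regulators and Ragulator genes, 1 was called higher and 5 lower in WT, with the Rag GTPase gene Rragd at −1.01 ± 0.29 (SE, adjusted P = 0.0369) and Lamtor4 at 0.65 ± 0.11 (SE, adjusted P = 0.0049).

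Under αMARCO in WT TAMs, 8.91% of all genes were called higher and 11.8% lower, and no list was tested against these shares. Called higher and lower were 0 and 7 of 38 hydrolases, and 1 and 1 of 16 pump genes. The counts were 3 and 3 of 23 membrane genes, and 1 and 1 of 9 sorting genes. They were 0 and 5 of 7 tested genes on the inhibitor list, and 4 and 3 of 16 MiT/TFE and Ragulator genes. On the hydrolase list the largest change was that of Ifi30, which encodes a thiol reductase of antigen processing (−1.31 ± 0.25 (SE), adjusted P = 0.00365). On the inhibitor list it was that of Serpinb9 (−2.12 ± 0.18 (SE), adjusted P = 6.06e-04). Fnip1, a folliculin partner, rose most in its list (0.90 ± 0.12 (SE), adjusted P = 9.05e-04) and Lamtor2 fell most (−0.82 ± 0.10 (SE), adjusted P = 5.41e-04). Among pump genes, the lysosomal chloride exchanger Clcn7 rose (0.51 ± 0.11 (SE), adjusted P = 0.00886) and the assembly factor Vma21 fell (−0.51 ± 0.13 (SE), adjusted P = 0.0149). The membrane gene Slc36a1, an amino acid transporter, rose (0.68 ± 0.08 (SE), adjusted P = 4.99e-04) and the peptide transporter Abcb9 fell (−1.70 ± 0.37 (SE), adjusted P = 0.00653). In the sorting route Gga3 rose (0.79 ± 0.09 (SE), adjusted P = 3.32e-04) and Sort1 fell (−1.38 ± 0.12 (SE), adjusted P = 1.01e-04). With both 3d/3d αMARCO libraries in the fit, edgeR called none of the listed genes in the comparisons that include that group, in which it called no gene of the whole table either, and the lists were not counted without those libraries.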

How the data were processed

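Per the labels and the study's methods, the authors trimmed with fastp, mapped to GRCm38 using HISAT2 2.0.5 and obtained gene counts from featureCounts 1.5.0. The deposited raw counts carry no normalization. The deposited FPKM values divide them by gene length and sequencing depth. The authors' fold changes, P values and normalized counts were not used. The 3 deposited tables were joined by gene identifier. In a check of 95230 counts held by more than 1 table, 0 differed, and a gene missing from a table, set to 0, had at most 1 count where it could be checked. Of the genes, 93.8% had the position given in GENCODE M21.

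CPM used TMM factors over 8 libraries. Tests used R 4.3.3 and edgeR 4.0.16 (filterByExpr, TMM, robust quasi-likelihood fit) on the 4 libraries of each comparison, or on all 8 for the difference of effects, with Benjamini-Hochberg adjustment over all genes tested. Alternatives were DESeq2 1.42.0 and its size factors, no filter beyond 1 count, a floor of 10 counts per library, 1 model for all 8 libraries, a replicate block, gene length offsets, both together, other fold thresholds, and each library left out. A model of the 6 libraries outside 3d/3d αMARCO was chosen after seeing the data. The genes and lists were chosen with earlier results of these data known. Named are each gene called in any comparison, the highest gene of each role, genes with under 3 counts in a group, paralogs, and the called gene of largest change in each direction of each other list; other genes were named after their values were seen. The procedure was run on simulated counts with the same dispersion in every library. That setting does not cover the wider spread of the 3d/3d αMARCO libraries.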

Additional observations from a re-analysis of the deposited data

How the results depend on the processing

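Under the alternatives that keep all libraries of a comparison, the log2 fold changes of the genes called kept their sign, and 104 of 126 such values stayed called. With all 8 libraries in 1 model the number of genes called went from 7 to 0 for WT over 3d/3d in control and from 7 to 1 for αMARCO in WT, while the share of all genes called went from 13.0% to 2.19% and from 20.7% to 0.987%; the SD between the 3d/3d αMARCO libraries, 1.01, enters that fit. Without a fold threshold the numbers were 11 and 16, and at a log2 fold change of at least 1 they were 1 and 4. The shares of all genes at these thresholds are not given here, so these numbers are no result about these genes. In 3d/3d, DESeq2 and the fit with no filter beyond 1 count each called 1 gene for αMARCO, and the cause was not tested. Leaving out 1 library gave 4 to 7 genes for WT over 3d/3d in control, 6 to 9 for αMARCO in WT, 0 to 15 for WT over 3d/3d under αMARCO, 0 to 11 for αMARCO in 3d/3d and 0 to 14 for the difference of effects. Each of these fits leaves 1 library in a group. The share of all genes called also changed with the library left out, so these ranges are no result about these genes. Replicate numbers are shared by the groups only as numbers. The correlation of the replicate differences between groups ranged from −0.077 to 0.135 over 16620 genes. A replicate block called 8 genes for WT over 3d/3d in control and 7 for αMARCO in WT, against 15.4% and 19.7% of all genes. With gene length offsets added, the numbers were 6 and 7, against 12.1% and 17.3%. Both fits called 0 for WT over 3d/3d under αMARCO, αMARCO in 3d/3d and the difference. There the block alone called 0.617%, 0.0324% and 0% of all genes, and with offsets 0.617%, 0.00648% and 0%. Shares of protein-coding counts in place of all counts raised each share slightly. With 2 libraries per group, genes under a few CPM carry wide errors, and 8 of the 41 could not be tested.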
